A study of Mus musculus with 3 samples.

Results

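The 203 genes described here encode solute carriers, the membrane proteins that move amino acids, transmitters, sugars, ions, metals and metabolites into and out of cells and organelles. They were chosen by symbol, taking every gene whose name begins with Slc, a family number, the letter a and a member number, and by total, taking those with 50 or more unique molecular identifiers (UMIs, one per captured RNA molecule) over all filtered cells. *Slc1a2*, *Slc1a3*, *Slc12a2* and *Slc12a5* were left out by name. The 203 members are among 14933 genes of the table and belong to 44 families. Another 25 matching symbols fell under the total, and just inside it stood *Slc26a11* with 50 UMIs and *Slc9a7* with 52, just outside *Slc22a4* with 49 and *Slc17a8* with 48. The symbol is not proof of transport, since *Slc4a1ap*, *Slc7a6os*, *Slc9a3r1* and *Slc9a3r2* carry a carrier's name with a suffix and encode partner, scaffold or neighboring proteins.

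The cells were sorted by FACS for tdTomato from papain-dissociated medial prefrontal cortex (mPFC) of C57Bl6 mice at postnatal day 5 and captured with the 10X Genomics single-cell kit. There were 3 libraries, 1 for each genotype: *Tbr1* wild-type, *Tbr1* layer5 heterozygous with 1 floxed *Tbr1* allele, and *Tbr1* layer5 homozygous with both alleles floxed. All 3 carried Rbp4-Cre (line KL100), which acts in layer 5 pyramidal neurons but also in other cells that use the transgene, and the Cre-dependent tdTomato reporter Ai14. Every comparison of genotypes is therefore between single libraries, no test between them was run, and no value has a replicate error.

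Solute carriers divide the work of the brain among its cells. Neurons load transmitter into vesicles with proton-driven vesicular carriers, astrocytes clear glutamate, GABA and glycine with sodium-coupled carriers, and the endothelium of the blood-brain barrier admits glucose, lactate and amino acids. Inner mitochondrial membrane carriers exchange ADP for ATP and bring in phosphate and substrates in every cell. In the early postnatal cortex astrocytes, vessels and synapses are all still forming.

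Cells were compared in the 3 groups of the authors: typical neuronal cells, which they kept for differential expression, atypical neuronal cells, which they set aside, and filtered cells outside their neuronal table. The typical group held 1778 wild-type, 5357 heterozygous and 3935 homozygous cells, the atypical group 304, 107 and 462, and the outside group 2873, 1398 and 1182 in the same order. UMIs were summed per library and group, from 216259 in heterozygous atypical cells to 10418228 in heterozygous typical cells, and expressed per 1000000 UMIs of the group (CPM). Intervals on sums and ratios are exact 95% intervals for counting error only. Between pairs of libraries 37 to 58 cell barcodes were shared. *Tbr1* was at 27.5, 30.7 and 22.4 CPM in wild-type, heterozygous and homozygous typical cells, but the deleted exons 2 and 3 lie outside the 3′ end that the kit reads, so this value does not check the genotype. The excitatory marker list (9 genes) was at 3060 to 4413 CPM in typical cells, and the astroglial list (10 genes) was also at 6171 to 7124 CPM there, most of it *Fabp7* at 4775 to 5713 CPM, against 5862 to 6247 CPM outside. RNA free in the cell suspension was estimated from droplets of at least 100 and under 500 UMIs. Lists of blood, meningeal, endothelial and microglial genes stood highest in wild-type typical cells, the endothelial list at 135 CPM against 45.98 in heterozygous and 72.6 in homozygous cells.

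In typical neurons the members were mostly mitochondrial. Their summed level was 4056 CPM in wild-type, 4622 in heterozygous and 4575 in homozygous typical cells, and the 38 mitochondrial carriers of family Slc25 made up 2341, 2876 and 2804 CPM of it. The 3 genes *Slc25a4*, *Slc25a5* and *Slc25a3* held 44.4, 48.2 and 48.0% of all member UMIs. *Slc25a4*, an ADP/ATP translocase, had 943, 1223 and 1212 CPM in wild-type, heterozygous and homozygous typical cells. *Slc25a5*, another ADP/ATP translocase, had 424, 522 and 518 CPM, and *Slc25a3*, the mitochondrial phosphate carrier, had 433, 482 and 468 CPM. The 2 translocases are close paralogs, so reads shared between them may have been lost or misplaced by the counting. The level of most members was far lower: 4 of 203 had a mean of 100 CPM or more over the 3 libraries, 60 had 10 or more and 30 were under 1. These are 3′ counts, 1 per molecule, so gene length was not divided out, and in a sum over cells fewer cells with a gene and less RNA per cell cannot be told apart.

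Below the 3 leading carriers stood *Slc24a5* at 98.3, 89.1 and 116 CPM in wild-type, heterozygous and homozygous typical cells, *Slc25a18*, a mitochondrial glutamate carrier, at 94.3, 112 and 91.0, and *Slc48a1*, a heme transporter, at 78.7, 98.7 and 99.3. *Slc24a5* encodes an exchanger of sodium, potassium and calcium best known from pigment cells. Its gene shares 921 exonic bases with *Myef2* on the opposite strand, and *Myef2* was at 107, 105 and 134 CPM in the same cells, so the source of the *Slc24a5* UMIs is uncertain. *Slc6a11* and *Slc22a17* came next at means of 77.1 and 75.5 CPM, then *Slc9a3r1*, a scaffold protein, at 70.3 and *Slc30a9*, a mitochondrial zinc transporter, at 68.6. Of the members, 23 overlap the exons of another counted gene on the opposite strand and 2 on the same strand. *Slc25a18* is among the 23, sharing 32 exonic bases with *Atp6v1e1*, which was at 227, 217 and 212 CPM in typical cells.

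**Figure D1:**
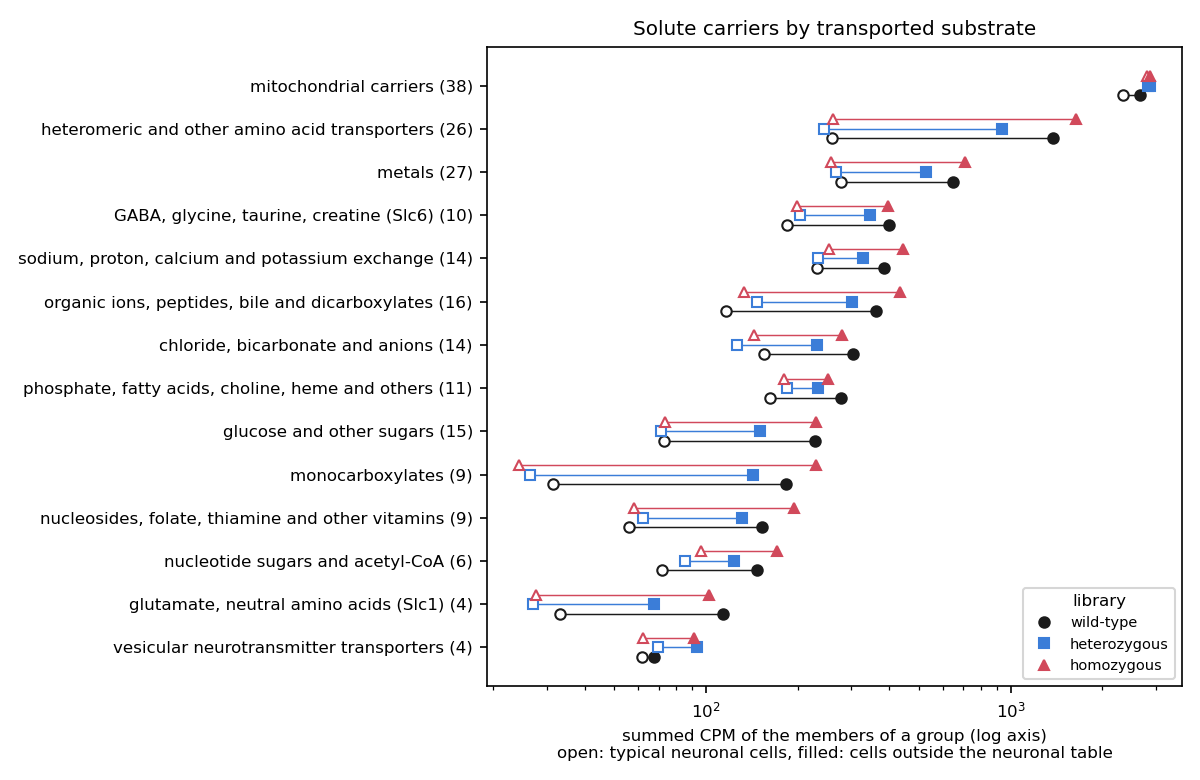
Summed CPM (log axis) of the members of each of 14 substrate groups, with the number of members in parentheses. Open symbols are typical neuronal cells and filled symbols are cells outside the neuronal table, 1 line per library: mitochondrial carriers lie at 2341 to 2876 CPM in typical cells and 2656 to 2869 CPM outside, while heteromeric and other amino acid transporters go from 244 to 262 CPM in typical cells to 934 to 1635 CPM outside.

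Outside the neuronal table the members together were at 7296, 6439 and 8038 CPM in the wild-type, heterozygous and homozygous library, above the typical cells in each. Of the 123 members with 50 or more UMIs over both groups in every library, 44 were at least 2-fold higher outside in all 3 libraries, or 35.8%, where 17% of all 9113 genes were. None of the 123 was 2-fold lower in all 3 libraries, where 0.0219% of genes were, and *Slc38a4* was so without the heterozygous library. The median log2 ratio of the members was 1.07, 0.73 and 1.02 in wild-type, heterozygous and homozygous libraries, against 0.62, 0.32 and 0.46 for all genes. The other 80 members were too sparse for this count, and a low member that reached 50 UMIs only through the outside cells had to be higher there, so these shares are a description. The heterozygous outside group was the least different. Of its cells 20.4% fell into an excitatory cluster, against 1.43% of wild-type and 2.62% of homozygous outside cells. The part of these cells in the ratios was not tested.

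The substrate groups were set by family number, so a group can hold members that do not carry what it is named for. *Slc4a1ap* is counted with chloride and bicarbonate, and *Slc9a3r1* and *Slc9a3r2* with the exchangers. The 44 members were 12 of 21 tested in the metal group, 10 of 16 in the group of heteromeric and other amino acid transporters and 4 of 5 in the nucleoside and vitamin group. They were also 3 of 8 in family Slc6, 3 of 8 in the sugar group and 3 of 11 in the chloride and bicarbonate group, with 2 or fewer in each other group. Among all genes the share was 17%, and groups of so few members are not ranked against it or each other. Of 24 mitochondrial carriers 2 were among them, *Slc25a36* and *Slc25a28*, and the median log2 ratio of the 24 was 0.11. The 6 members tested in the group of sodium, proton, calcium and potassium exchange held none.

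**Figure D2:**
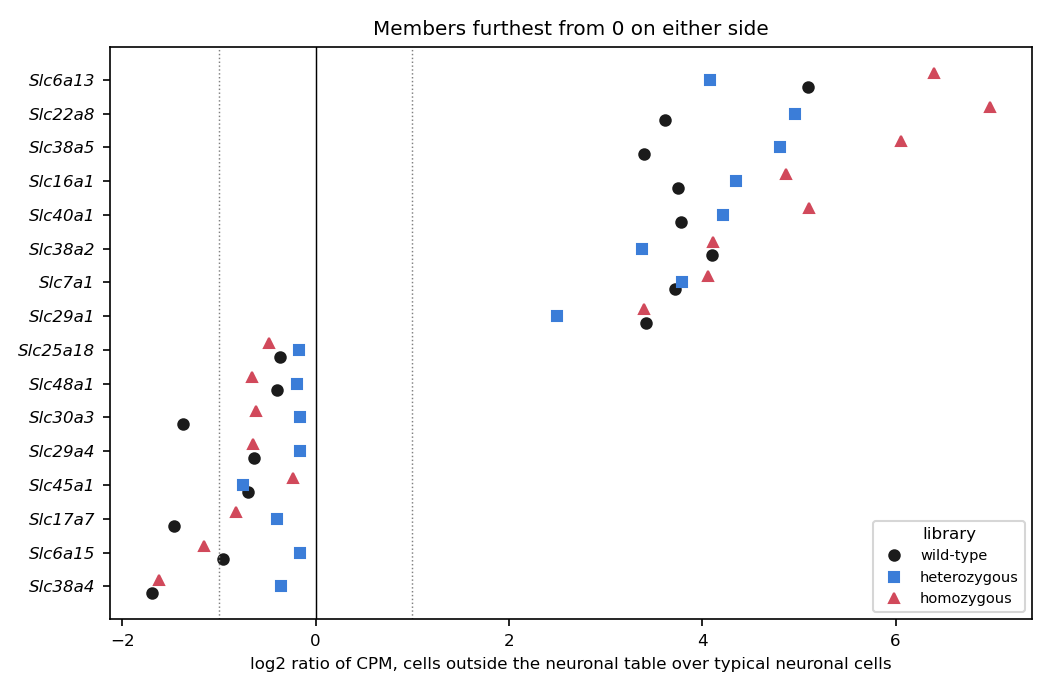
The log2 ratio of CPM, outside over typical cells, 1 symbol per library. Shown are the 8 members with the highest and the 8 with the lowest median, among those with 1 direction in all 3 libraries. Dotted lines mark 2-fold: the 8 upper genes lie between 2.49 and 6.98 in all 3 libraries, and the 8 lower ones between −1.69 and −0.16.

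The cells outside the neuronal table have no deposited cell type. They were clustered on genes other than Slc genes, so that no member shaped the clusters, and 19 of 27 clusters were named from marker lists, giving 13 classes. The remaining 8 clusters, 1666 of 5453 cells, were left unnamed. A cluster of 61 cells named for hemoglobin genes also had 9 of 9 endothelial markers at 2-fold or more, and it was kept as a class of its own. With 20 or more UMIs required in the class, 51 of 203 members, or 25.1%, were at least 2-fold higher in 1 class than in every other, where 13.8% of all 12990 genes with 50 or more UMIs were. With every cell thinned to 1000 UMIs the count was 33, or 16.3%, where 7.66% of those genes were. They are a description of clusters, with no test: 11 in meningeal fibroblasts, 9 each in astrocytes and radial glia and in endothelial cells, 8 in microglia and macrophages, 5 in Cajal-Retzius neurons, 3 in the oligodendrocyte lineage, 2 in excitatory neurons and 1 each in inhibitory neurons, mural cells, ependymal and choroid plexus cells and blood. The striatal-type and cycling classes had none. The unnamed clusters were not among the classes compared: in 6 of the 51 members an unnamed cluster with 20 or more UMIs of the gene was above 50% of the leading class's level, and in 1 of them, *Slc30a3*, it was above that class. The inhibitory class was a single cluster, and clusters 7 (278 cells) and 24 (42 cells), each with 4 inhibitory markers at 2-fold or more, *Gad1*, *Sst* and *Lhx6* among them, were left unnamed because they did not meet the naming rule.

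**Figure D3:**
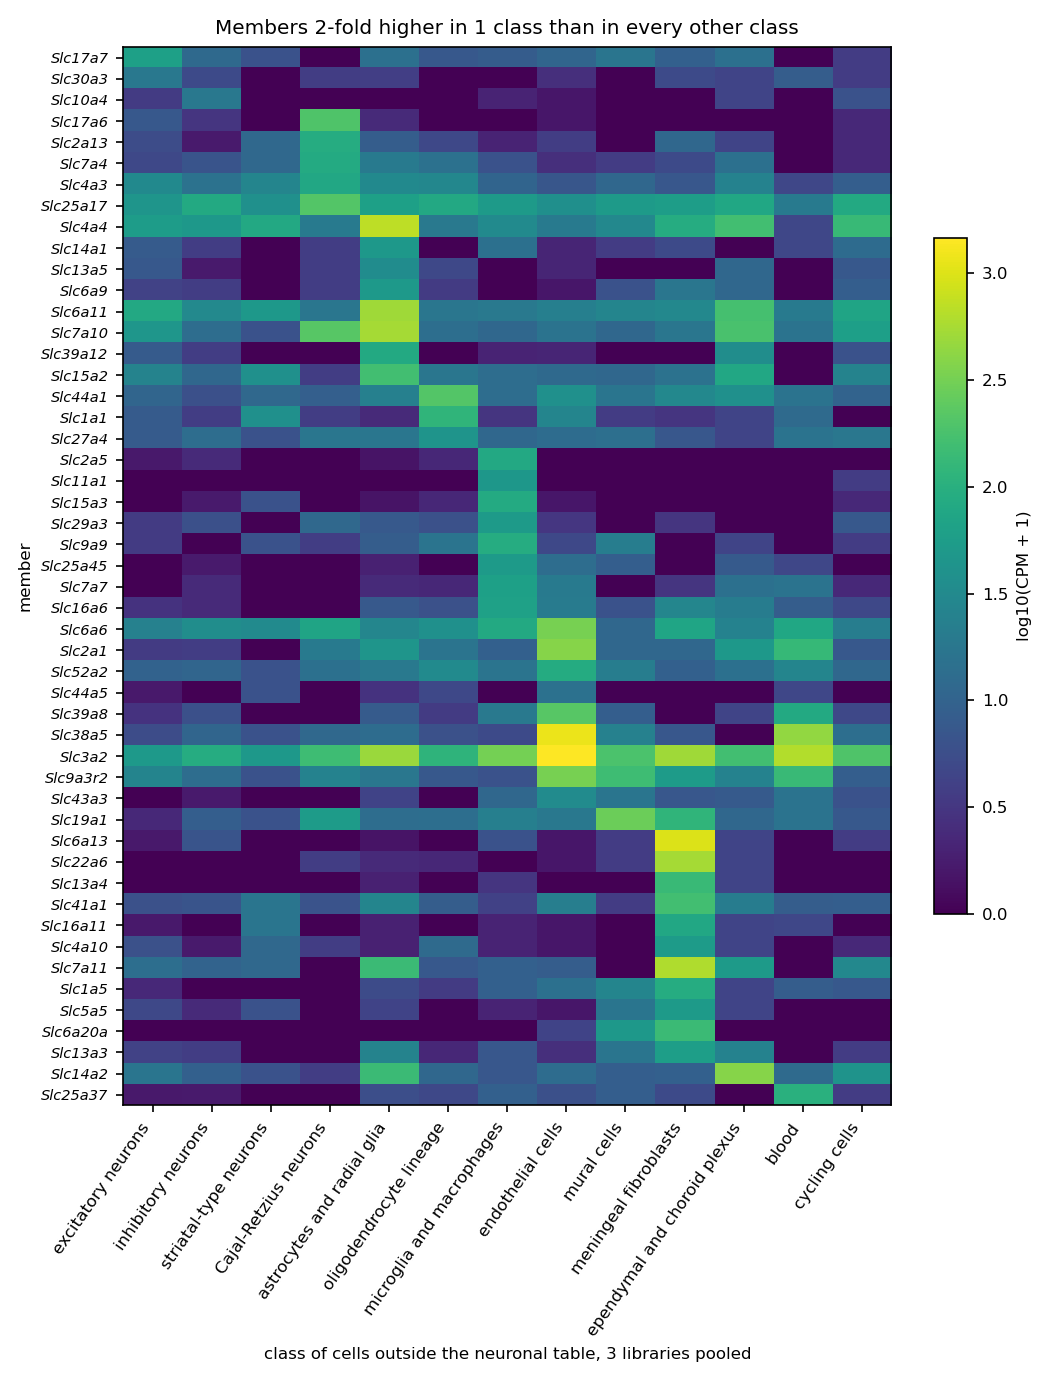
Heatmap of log10(CPM + 1) for 50 of the 51 members (rows) that were 2-fold higher in 1 class than in every other, over 13 classes (columns) of cells outside the neuronal table, 3 libraries pooled. The bright blocks run down the diagonal, with *Slc3a2* (1452 CPM) and *Slc38a5* (1172 CPM) brightest in endothelial cells and *Slc6a13* (996 CPM) in meningeal fibroblasts.

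The vesicular carriers differed in level between the neuron classes. *Slc17a7*, the vesicular glutamate transporter of cortical excitatory neurons, was at 38.4, 46.9 and 38.5 CPM in wild-type, heterozygous and homozygous typical cells and at 13.9, 35.7 and 21.8 CPM outside. Among the classes it was highest in excitatory neurons at 62.3 CPM. That class held 41 wild-type, 285 heterozygous and 31 homozygous cells, so its pooled values here and below come mostly from the heterozygous library. *Slc17a6*, the vesicular glutamate transporter of thalamic and other subcortical neurons, was at 2.72, 2.88 and 2.80 CPM in typical cells but reached 197 CPM in Cajal-Retzius neurons, the early Reelin-producing neurons of layer 1, 30.7-fold above the next class. By library it was at 194, 164 and 352 CPM in that class, which held 50, 14 and 6 cells. *Slc32a1*, which loads GABA and glycine into vesicles, was at 17.4, 17.3 and 16.6 CPM in typical cells, 79.1 CPM in inhibitory neurons and 128 CPM in the striatal-type class, a class of 67 cells with 24 UMIs of the gene. The unnamed clusters 7 and 24 were higher still, at 291 and 278 CPM on 291 and 43 UMIs. *Slc30a3*, the zinc transporter of glutamatergic vesicles, was at 17.3 CPM in excitatory neurons, 27 UMIs in all, and 2.31-fold lower in the next class, but at 27.99 CPM in unnamed cluster 7 on 28 UMIs. That cluster also had *Slc17a7* at 51.98 CPM. *Slc10a4*, a vesicle protein of the bile acid carrier family, was at 17.5 CPM in inhibitory neurons with 25 UMIs.

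In atypical neuronal cells few members stood apart from the typical cells. Of 52 members with 50 or more UMIs over both groups in every library, 1 was 2-fold higher in atypical than typical cells in all 3 libraries and 1 was 2-fold lower, against 0.523 and 0.776% of all 5931 genes. *Slc32a1* was the higher one, at 44.4, 46.2 and 33.6 CPM in wild-type, heterozygous and homozygous atypical cells on 30, 10 and 25 UMIs, with log2 ratios of 1.35, 1.42 and 1.01. *Slc17a7* was the lower one, at 11.8, 9.25 and 16.1 CPM on 8, 2 and 12 UMIs, with log2 ratios of −1.70, −2.34 and −1.26. In each library the atypical value lay above the typical one for *Slc32a1* and below it for *Slc17a7*, and the interval of each ratio held no 0. With every cell thinned to 1000 UMIs neither gene passed 2-fold in all 3 libraries, and without the 5% of cells with the most UMIs *Slc32a1* did not. The count of lower members was 3 without the wild-type and 4 without the homozygous library, with no share of all genes given beside either. The authors set these cells apart for low excitatory markers, so *Slc17a7* is no independent sign of what they are. Striatal-type markers (7 genes) stood at 363, 486 and 548 CPM in atypical and 42.5, 38.4 and 60.3 CPM in typical cells, while inhibitory markers (10 genes) stood at 857, 453 and 690 against 600, 523 and 651 CPM. The part of either cell type in the carrier values was not tested. *Slc29a4*, a monoamine transporter, had log2 ratios of −1.79, −1.32 and −0.87 on 6, 3 and 14 atypical UMIs. Its heterozygous interval held 0 (−3.60 to 0.24). *Slc22a17*, a lipocalin receptor, had log2 ratios of 0.58, 0.66 and 0.20, *Slc6a6* 0.06, 0.48 and 0.60, *Slc1a4* −0.64, −1.50 and −1.97, and *Slc25a39*, which carries glutathione into mitochondria, −1.11, −1.59 and −0.14. The 4 members of family Slc1, *Slc1a4* among them, together had 14, 4 and 5 atypical UMIs. The rule that picked these members required 1 direction in all 3 libraries, so that agreement is no observation.

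**Figure D4:**
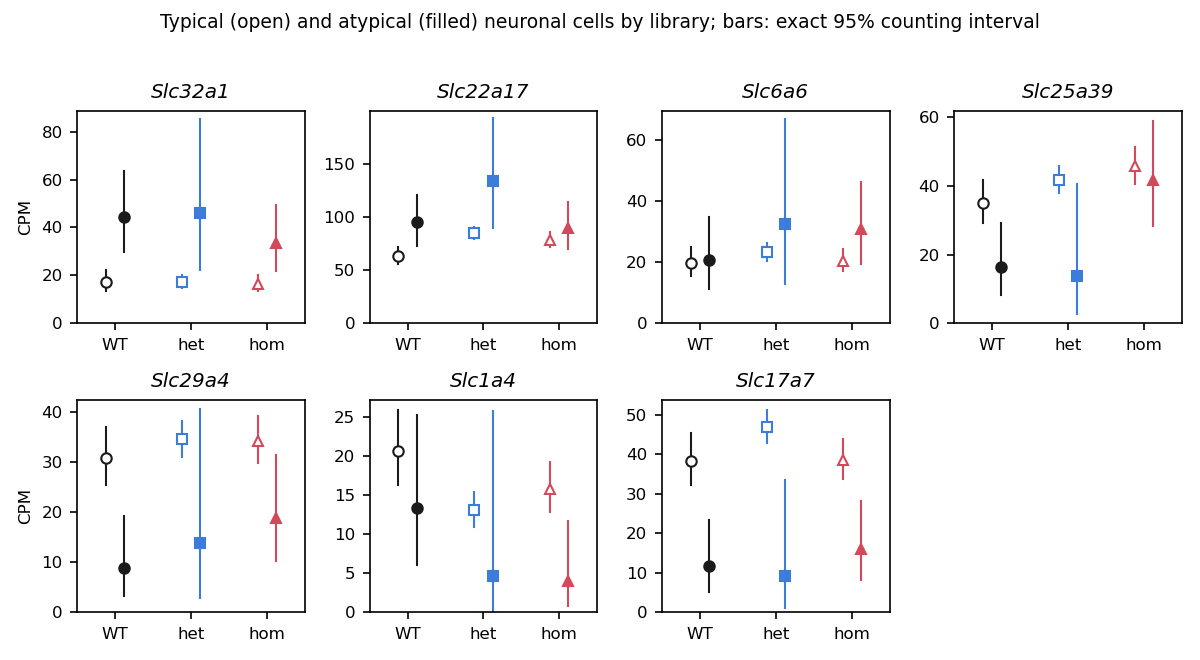
CPM of 7 members, 3 with a high and 4 with a low median atypical over typical ratio, by library (WT wild-type, het heterozygous, hom homozygous). Open symbols are typical and filled symbols atypical neuronal cells, and bars are exact 95% counting intervals: *Slc32a1* lies at 33.6 to 46.2 CPM in atypical and 16.6 to 17.4 CPM in typical cells.

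Transporters that clear GABA and glycine were split between glia and the meninges. *Slc6a11*, the GABA transporter of astrocytes, was at 501, 562 and 481 CPM in the astroglial class of the wild-type, heterozygous and homozygous library. *Slc6a13*, a GABA and taurine transporter, was at 903, 1059 and 1308 CPM in meningeal fibroblasts and 178-fold lower in the next class, and in typical neurons it had 4, 11 and 3 UMIs. *Slc6a11* thus peaked in astroglia and *Slc6a13* in the meninges. *Slc6a9*, the glial glycine transporter, was at 50.8 CPM in astrocytes and radial glia. *Slc6a6*, the taurine transporter, was at 322 CPM in endothelial cells, 3.86-fold above the next class, and *Slc6a8*, the creatine transporter, at 43.5 CPM in the oligodendrocyte lineage without a 2-fold lead.

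Astroglial carriers were also read in typical neurons. *Slc6a11* was at 87.7, 70.5 and 73.3 CPM in wild-type, heterozygous and homozygous typical cells, against 61.9, 73.7 and 61.1 CPM in the nearly empty droplets of those libraries. *Slc7a10*, an exchanger of small neutral amino acids including D-serine, was at 44.95, 46.2 and 49.6 CPM, against 38.9, 58.6 and 50.02 in the droplets. *Slc4a4*, the sodium bicarbonate cotransporter of astrocytes, was at 74.1, 51.1 and 62.6 CPM, against 50.5, 45.9 and 44.2. In astrocytes and radial glia the 3 genes reached 509, 547 and 698 CPM with the libraries pooled. The astroglial markers *Aqp4* and *Gja1* were at 31.9 to 56.5 CPM in typical cells and 129 to 171 CPM in the outside group. *Fabp7* went the other way, at 4775 to 5713 CPM in typical cells and 3598 to 3838 CPM outside. *Aldoc* did too, at 602 to 670 CPM in typical cells and 406 to 518 CPM outside. The other listed genes were higher outside in each library, and none of the 10 was at 0 in typical cells. The part of free RNA, or of astroglial RNA captured with a neuron, in these values was not tested.

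Of 16 heteromeric and other amino acid transporters tested, 10 were 2-fold higher outside the neuronal table in all 3 libraries, where 17% of all genes were. This share is a description too, since low members that reached the minimum of UMIs only through the outside cells had to be higher there. The 26 heteromeric and other amino acid transporters summed to 259, 244 and 262 CPM in wild-type, heterozygous and homozygous typical cells and to 1375, 934 and 1635 CPM outside, with a median log2 ratio of 2.3 over the 16 tested. *Slc3a2*, the heavy chain that brings several light chains to the membrane, was at 52.3, 54.0 and 60.9 CPM in typical cells and 366, 238 and 470 CPM outside. Its light chain *Slc7a5*, which carries large neutral amino acids across the blood-brain barrier, was at 21.8, 15.4 and 21.2 CPM in typical cells and 169, 127 and 237 CPM outside. In endothelial cells *Slc3a2* was at 1413, 1135 and 1769 CPM and *Slc7a5* at 1014, 1201 and 1229 CPM by library. Both chains were thus highest in the endothelium in the pooled data, though *Slc7a5* led the blood cluster (701 CPM) by less than 2-fold.

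Other amino acid carriers of the endothelium had still lower levels in neurons. *Slc38a5*, a carrier of glutamine and other small amino acids, was at 14.4, 2.98 and 3.95 CPM in typical cells, 152, 83.1 and 262 CPM outside, and 1071, 1035 and 1531 CPM in endothelial cells. *Slc7a1*, the cationic amino acid transporter, was at 845, 870 and 724 CPM in endothelial cells and 5.86 to 9.81 CPM in typical cells. *Slc38a2*, a sodium-coupled carrier of neutral amino acids, was at 489, 428 and 391 CPM in endothelial cells and 5.27 to 5.99 CPM in typical cells. The sister gene *Slc38a1* had another pattern, with 85.3 CPM in inhibitory neurons, 109 CPM in cycling cells and 12.6 CPM in endothelial cells.

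Among the classes *Slc7a11* and *Slc1a5* were highest in meningeal fibroblasts, *Slc1a4* in astrocytes and radial glia and *Slc7a7* in microglia and macrophages. *Slc7a11*, the cystine and glutamate exchanger, was at 564, 669 and 732 CPM in meningeal fibroblasts and 143 CPM in astrocytes and radial glia, and at 10.6, 6.81 and 9.05 CPM in typical neurons. *Slc1a5*, a neutral amino acid exchanger, was at 89.0 CPM in meningeal fibroblasts and *Slc7a7*, a light chain for cationic and neutral amino acids, at 61.6 CPM in microglia and macrophages. *Slc1a4*, which carries serine and alanine, was at 211 CPM in astrocytes and radial glia and 199 CPM in endothelial cells. *Slc7a2*, a second cationic amino acid transporter, was at 39.9 CPM in astrocytes and radial glia on 85 UMIs and 40.95 CPM in ependymal and choroid plexus cells. *Slc1a1*, the glutamate transporter of neurons and some other cells, was highest in the oligodendrocyte lineage at 79.7, 251 and 230 CPM. *Slc6a15*, a carrier of branched-chain amino acids and proline, and *Slc38a4* went the other way and were lower outside than in typical cells in all 3 libraries, by log2 ratios of −0.96, −0.17 and −1.15 and of −1.69, −0.36 and −1.62. Both were named by a rule that required 1 direction in all 3 libraries, so that agreement is no observation. *Slc6a15* was at 63.5 CPM in the excitatory class, 1.81-fold above Cajal-Retzius neurons, with libraries pooled. The excitatory class held 41, 285 and 31 wild-type, heterozygous and homozygous cells, and the Cajal-Retzius class 50, 14 and 6. Class and library therefore cannot be told apart in this lead.

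The promoters of these amino acid carriers are shown for the element that cells short of amino acids use to raise transcription through the factor ATF4. The letters TGATGCAA, or TTGCATCA on the other strand, were searched in RefSeq promoter windows from 250 bases before to 50 bases after each transcript start (GRCm38.p6), which held 157 of the 203 members. The letters were found in 4 members, *Slc1a4*, *Slc50a1*, *Slc7a11* and *Slc7a7*, or 2.55%, and in 1.03% of 27025 genes. A match is a description and not a bound site. The windows of *Slc7a11* (chr3:50443564-50443863, minus strand) and *Slc1a4* (chr11:20332664-20332963, minus strand) follow, with the matching letters in capitals.
*Slc7a11*: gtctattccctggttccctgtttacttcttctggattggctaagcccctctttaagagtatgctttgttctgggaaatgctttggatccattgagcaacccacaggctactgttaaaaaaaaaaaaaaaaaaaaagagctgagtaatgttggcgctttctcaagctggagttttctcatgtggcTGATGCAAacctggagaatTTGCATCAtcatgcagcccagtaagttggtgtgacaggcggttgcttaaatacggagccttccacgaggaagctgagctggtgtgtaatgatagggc
*Slc1a4*: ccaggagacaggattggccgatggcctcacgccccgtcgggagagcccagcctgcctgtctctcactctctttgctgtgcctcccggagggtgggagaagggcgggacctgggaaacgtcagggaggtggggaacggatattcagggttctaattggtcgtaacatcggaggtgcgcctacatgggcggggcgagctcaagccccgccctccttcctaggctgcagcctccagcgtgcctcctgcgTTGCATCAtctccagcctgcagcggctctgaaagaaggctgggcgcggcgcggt
The first match began 66 bases before the start in *Slc7a11*, which had 2, and 4 bases before it in *Slc1a4*.

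*Slc2a1* and *Slc16a1* were highest in endothelial cells among the classes. *Slc2a1*, the glucose transporter of the blood-brain barrier, was at 413, 338 and 335 CPM in endothelial cells of the wild-type, heterozygous and homozygous library and at 43.7 CPM in astrocytes and radial glia. *Slc2a3*, the glucose transporter of neurons, was at 6.81, 8.54 and 6.26 CPM in typical cells and 7.43, 9.26 and 9.39 CPM outside, and the interval of each of the 3 ratios held 0. *Slc16a1*, the lactate and ketone transporter, was at 722, 925 and 830 CPM in endothelial cells and 8.45, 4.32 and 5.27 CPM in typical cells. Other sugar carriers were narrower. *Slc2a5*, the fructose transporter, was at 79.3 CPM in microglia and macrophages. It was at least 2-fold lower in every other class, too sparse there for an exact ratio. *Slc2a13*, a myo-inositol transporter, was at 89.2 CPM in Cajal-Retzius neurons. *Slc45a1*, a proton-coupled sugar transporter, was lower outside than in typical cells in all 3 libraries, by log2 ratios of −0.70, −0.75 and −0.23. The rule that named it required 1 direction, and the interval of the homozygous ratio held 0 (−0.91 to 0.41).

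Organic anions, nucleosides and folate had carriers at the borders of the brain. *Slc22a8*, an organic anion transporter, was at 425, 442 and 691 CPM in endothelial cells, and its log2 ratio outside over typical cells was 3.61, 4.96 and 6.98. *Slc22a6*, a related organic anion transporter, was at 567, 376 and 552 CPM in meningeal fibroblasts. It was at least 2-fold lower in every other class, too sparse there for an exact ratio. It had 0, 4 and 1 UMIs in typical cells, and 0 UMIs in the wild-type library allows up to 0.817 CPM, taking 3 counts as the limit. The sulfate transporter *Slc13a4* was at 137 CPM in the same class. *Slc29a1*, an equilibrative nucleoside transporter, was at 163 CPM in endothelial cells and 124 CPM in microglia and macrophages. *Slc19a1*, the reduced folate carrier, was highest in mural cells at 297, 135 and 334 CPM, and its pooled level there was 2.42-fold above that in meningeal fibroblasts. *Slc29a4* was lower outside than in typical cells, at 30.8, 34.6 and 34.2 CPM in typical cells and 19.7, 30.8 and 21.8 CPM outside. Its heterozygous log2 ratio was −0.17 with an interval that held 0 (−0.46 to 0.12).

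Of 21 metal transporters tested, 12 were 2-fold higher outside in all 3 libraries, where 17% of all genes were, and none was 2-fold lower. A low member that reached the minimum of UMIs only through the outside cells had to be higher there, so this share is a description. Among the 12, *Slc40a1* had 14, 24 and 16 UMIs in wild-type, heterozygous and homozygous typical cells, and *Slc39a8* had 14, 27 and 18. The zinc transporters *Slc30a9* and *Slc30a3* were below typical cells in each library, by log2 ratios of −0.16, −0.22 and −0.37 and of −1.37, −0.16 and −0.62. The interval of the wild-type *Slc30a9* ratio held 0 (−0.39 to 0.06). So did those of the heterozygous (−0.70 to 0.35) and homozygous (−1.68 to 0.34) *Slc30a3* ratios. *Slc40a1*, the iron exporter ferroportin, was at 278, 390 and 472 CPM in endothelial cells and 152 CPM in microglia and macrophages, and at 2.304 to 3.81 CPM in typical neurons. *Slc11a1*, the phagosomal metal transporter of macrophages, had 0 UMIs in typical cells of every library, which by the same limit of 3 counts allows up to 0.817, 0.288 and 0.494 CPM, and 33.01, 72.1 and 54.4 CPM in microglia and macrophages. *Slc39a8* and *Slc39a10*, zinc importers, were at 220 and 278 CPM in endothelial cells. *Slc39a12*, another zinc importer, was at 82.7 CPM in astrocytes and radial glia, and *Slc30a10*, a manganese exporter, at 83.7 CPM there and 65.7 CPM in mural cells. *Slc25a37*, which brings iron into mitochondria, was at 101 CPM in the blood cluster, 12.1-fold above the next class. The zinc transporters *Slc39a6* and *Slc30a5* were at 67.7 and 26.05 CPM in cycling cells, and each was higher in another class by less than 2-fold. The zinc transporter *Slc30a4* was at 23.1 CPM in excitatory neurons, with no 2-fold lead.

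Of the 14 members of the chloride, bicarbonate and anion group 3 were 2-fold higher in 1 class than in every other, where 13.8% of all genes were. In the group of sodium, proton, calcium and potassium exchange 2 of 14 were, *Slc9a9* and *Slc9a3r2*, and *Slc9a3r2* is no exchanger. *Slc14a2*, a urea transporter, was at 389 CPM in ependymal and choroid plexus cells and 142 CPM in astrocytes and radial glia. *Slc8a1*, the sodium calcium exchanger, had 6, 14 and 7 UMIs in typical cells. *Slc24a2*, a potassium-dependent exchanger of neurons, was at 51.3 CPM in Cajal-Retzius neurons on 19 UMIs, under the 20 required. The phosphate transporter *Slc20a1* was at 31.96 CPM in astrocytes and radial glia. Lipid and choline carriers included *Slc44a1*, a choline transporter, at 171, 313 and 327 CPM in the oligodendrocyte lineage, and *Slc27a1*, a fatty acid transporter, at 226 CPM in astrocytes and radial glia and 188 CPM in ependymal and choroid plexus cells. *Slc22a23*, an orphan carrier, was at 62.7 CPM in the oligodendrocyte lineage. *Slc15a3*, a lysosomal peptide and histidine transporter, was at 85.6 CPM in microglia and macrophages, and *Slc16a4* at 96.4 CPM in endothelial cells. *Slc9a3r2*, a scaffold protein, was at 328 CPM in endothelial and 152 CPM in mural cells. *Slc7a4* was at 83.8 CPM in Cajal-Retzius neurons and *Slc37a3* at 27.3 CPM in inhibitory neurons, carriers whose substrates are less certain.

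Mitochondrial glutamate carriers differed in part between neurons and glia. *Slc25a22*, a glutamate carrier, was at 29.7, 39.3 and 33.7 CPM in typical cells and 48.8 CPM in excitatory neurons, against 19.7 CPM in astrocytes and radial glia. *Slc25a18*, its paralog, was at 244 CPM in astrocytes and radial glia, but also at 108 CPM in excitatory neurons. The part of the overlapping gene *Atp6v1e1* in the *Slc25a18* UMIs was not tested. *Slc25a12*, the aspartate and glutamate carrier of brain, was at 11.4, 17.7 and 16.1 CPM in typical cells and 9.31 to 26.6 CPM over the classes. *Slc25a4* was highest in Cajal-Retzius neurons at 2040 CPM and *Slc25a5* in mural cells at 865 CPM, each within 1.5-fold of the next class.

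The genotype comparison asked which carriers differed in typical neurons after loss of *Tbr1*. With 50 or more UMIs in the 2 libraries together, 99 members were compared between the homozygous and wild-type libraries. Of these 14 were past 1.5-fold higher, where 5.90% of all 8479 genes were, and 6 past 1.5-fold lower, where 4.62% were. Between the heterozygous and wild-type libraries 21 of 125 members were past 1.5-fold higher and 12 lower, where 6.61% and 5.92% of genes were. Between the homozygous and heterozygous libraries the counts were 4 higher and 8 lower of 136, where 2.90% and 2.35% were. Members are sparse, with a median of 117 UMIs in the first pair of libraries against 198 for all genes compared. Of the 58 members with 100 or more UMIs in that pair 4 were past 1.5-fold higher, where 4.29% of 6271 genes were, and 1 was lower, where 2.93% were. At that minimum 12 of 77 members were higher and 5 lower in heterozygous over wild-type, where 5.09% and 3.88% of 7401 genes were, and 1 of 89 was higher and 1 lower in homozygous over heterozygous, where 1.52% and 1.29% of 7891 were. With the atypical cells added to the typical ones 6 of the 99 members were past 1.5-fold higher in homozygous over wild-type, where 4.66% of genes were, and 8 lower, where 5.33% were, and in heterozygous over wild-type 13 of 125 were higher and 13 lower, where 5.76% and 7.43% were. The median log2 ratio was 0.12 for the members and 0.05 for all genes in homozygous over wild-type, and 0.10 and 0.04 in heterozygous over wild-type. Both comparisons use the same wild-type library, so their likeness is no second observation.

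*Slc6a15* had the most UMIs of the members past 1.5-fold higher in both mutant libraries. Wild-type typical cells had it at 31.3 CPM (115 UMIs), heterozygous cells at 56.6 (590 UMIs) and homozygous cells at 55.1 (335 UMIs). Over wild-type its log2 ratio was 0.82 (0.51 to 1.13) for homozygous cells and 0.85 (0.56 to 1.16) for heterozygous ones. *Slc20a2*, a phosphate transporter, was at 2.997, 6.62 and 7.90 CPM on 11, 69 and 48 UMIs, and its homozygous over wild-type log2 ratio was 1.40 (0.43 to 2.49). With the droplet profile subtracted this ratio was 2.76, on a wild-type level close to the limit of 3 counts. *Slc35a5*, of the nucleotide sugar family, was at 6.81, 11.3 and 12.2 CPM, with 0.84 (0.17 to 1.56), and *Slc26a6*, an anion exchanger, at 3.81, 6.14 and 6.58 CPM, with 0.79 and an interval that held 0 (−0.12 to 1.78). *Slc6a8* was at 7.36, 12.4 and 12.3 CPM, a ratio of 0.75 (0.10 to 1.44). The rule that named *Slc6a15*, *Slc20a2*, *Slc35a5* and *Slc26a6* required both mutant libraries to stand above wild-type, so their shared direction is no observation.

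The carriers furthest below wild-type had their highest levels in classes other than neurons. *Slc38a5* was at 14.4, 2.98 and 3.95 CPM in wild-type, heterozygous and homozygous typical cells, and its log2 ratio over wild-type was −1.87 (−2.63 to −1.15) for homozygous and −2.28 (−2.97 to −1.61) for heterozygous cells. *Slc2a1* was at 9.81, 3.36 and 2.96 CPM, with −1.73 (−2.63 to −0.87) in the homozygous library. *Slc14a2* was at 31.3, 17.9 and 15.97 CPM, with −0.97 (−1.38 to −0.57), and *Slc12a4*, a potassium chloride cotransporter, at 7.63, 4.51 and 4.12 CPM, with −0.89 (−1.73 to −0.06). Beside them, the endothelial list was at 135, 45.98 and 72.6 CPM in the same cells, and *Slc38a5* in nearly empty droplets at 42.5, 21.6 and 29.9 CPM. With the droplet profile subtracted the heterozygous *Slc38a5* ratio was −1.50, and the homozygous level fell to 0, so no ratio is given for it. The part of RNA from vessels in these values was not tested.

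**Figure D5:**
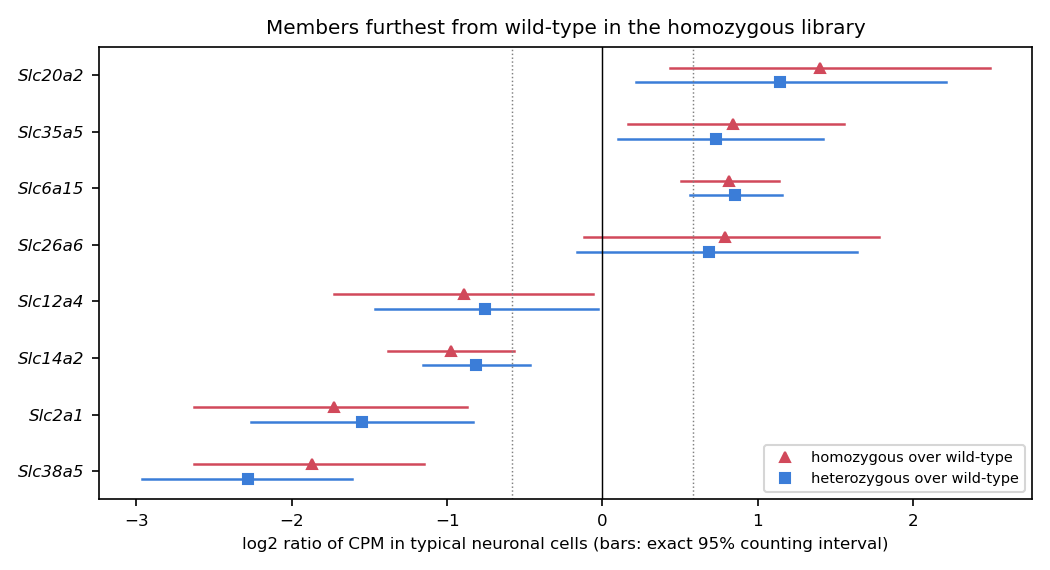
The log2 ratio of CPM in typical neuronal cells for the 4 members furthest above and the 4 furthest below wild-type, homozygous over wild-type (triangles) and heterozygous over wild-type (squares), with exact 95% counting intervals and dotted lines at 1.5-fold. The bars of *Slc6a15* span 0.51 to 1.13 and 0.56 to 1.16, and the bars of *Slc26a6* cross 0.

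*Slc30a3* was past 1.5-fold lower in the homozygous library than in both others, each a single library. Its level was 11.7 CPM in wild-type, 11.4 in heterozygous and 6.91 in homozygous typical cells on 43, 119 and 42 UMIs, with log2 ratios of −0.76 (−1.41 to −0.11) over wild-type and −0.72 (−1.27 to −0.21) over heterozygous. In nearly empty droplets *Slc30a3* was at 6.74, 9.16 and 5.70 CPM, also lowest in the homozygous library. The part of free RNA in its values was not tested. Its promoter is shown because it was 1 of 3 members, with *Slc39a11* and *Slc6a9*, that held the T-box letters AGGTGTGA or TCACACCT, the kind of site that TBR1 and its relatives bind. That is 1.91% of 157 members, against 1.48% of 27025 genes, and *Slc6a9* was at 4.36, 5.09 and 5.10 CPM in the 3 libraries. The window lies on the minus strand of chr5:31093478-31093777 (RefSeq, GRCm38.p6), inside the annotated gene (chr5:31086106-31108237), with the match in capitals 232 bases before the start.
*Slc30a3*: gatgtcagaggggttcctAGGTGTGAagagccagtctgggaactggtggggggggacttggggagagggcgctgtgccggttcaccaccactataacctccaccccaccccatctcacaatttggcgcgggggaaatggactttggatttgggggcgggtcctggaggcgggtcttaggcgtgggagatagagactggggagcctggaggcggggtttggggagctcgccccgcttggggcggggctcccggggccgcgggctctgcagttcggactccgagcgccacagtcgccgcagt
Whether TBR1 binds there was not tested with these files.

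The vesicular carriers with enough UMIs in typical neurons, *Slc17a7* and *Slc32a1*, stayed under 1.5-fold in all 3 comparisons of genotypes. *Slc17a7* had log2 ratios over wild-type of 0.00 (−0.30 to 0.32) for homozygous and 0.29 (0.02 to 0.57) for heterozygous cells, and *Slc32a1* −0.07 (−0.53 to 0.41) and −0.01 (−0.43 to 0.42). *Slc25a22* had 0.18 (−0.16 to 0.53) and 0.40 (0.09 to 0.72). *Slc25a12* was past 1.5-fold higher in heterozygous over wild-type at 0.63 (0.14 to 1.15), with a homozygous ratio of 0.50 (−0.04 to 1.05). *Slc7a11* was past it on the lower side in heterozygous over wild-type at −0.64 (−1.22 to −0.04), with a homozygous ratio of −0.23 (−0.85 to 0.40). *Slc1a6*, a neuronal glutamate transporter, was at −0.62 (−1.40 to 0.11) in homozygous over heterozygous. *Slc25a4* had 0.36 (0.30 to 0.42) and 0.37 (0.32 to 0.43), on 3463 wild-type UMIs, and stayed under 1.5-fold in both.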

How the data were processed

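Medial prefrontal cells of 3 mouse libraries were read with 10X Chromium 3′ v2 chemistry. The authors counted UMIs with Cell Ranger 2.0.1 on mm10 and deposited raw counts per gene and barcode, and a table of raw counts for filtered cells; this second table gave every level, and the deposited raw counts of all barcodes gave the droplets of free RNA. The deposited scaled and log values of neuronal cells were not used. Members, gene groups and motifs were chosen with earlier results of these data known. Counts were summed per library and group of cells and divided by the group total to give CPM, with exact Poisson and conditional binomial intervals at 95% (scipy 1.17.1). Genotypes, at 1 library each, could not be tested. Groups of cells were paired within 3 libraries, where an exact two-sided paired permutation test cannot go below p = 0.25, and were not tested. A gene was counted past a fold of 1.5 between genotypes or 2 between groups of cells, given 50 or more UMIs. Whether cells of a library came from 1 or several mice was not given in the sources used here. Cells outside the neuronal table were clustered without Slc genes (scanpy 1.11.5, leidenalg 0.10.2, 2000 variable genes, 30 components, 15 neighbors, resolution 1) and a cluster was named where at least 3 markers of a list (and 50% of the list) were 2-fold higher and 1 or more led it by fold, a rule set after the clusters were seen. No doublet caller was run; leaving out the 5% of cells with the most UMIs was an alternative. Named genes were the members with the highest level in typical cells, those furthest from 0 in each comparison with 1 direction throughout, the 3 with the largest ratio in each class, and a list of transporters with known roles; other members named beside them for their role or class were added after their values were seen. Alternatives were thinning to 1000 UMIs, subtraction of the droplet profile, other count minimums, other denominators, edgeR 4.0.16 and DESeq2 1.42.0 scaling factors, other clusterings and leaving out each library. Some members are not reported here by name.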

Additional observations from a re-analysis of the deposited data

How the results depend on the processing

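No paired analysis was possible because each genotype was 1 library. Groups of cells were compared within each of the 3 libraries, and these paired ratios were given without a test. Between genotypes, counts of members past a fold moved with the minimum of UMIs. In the homozygous over wild-type comparison the count of higher members went from 14 to 4 with 100 or more UMIs, 28 with no minimum and 6 with the atypical cells added, and that of lower members from 6 to 1, 38 and, with cells thinned to 1000 UMIs, 10. In heterozygous over wild-type the higher count went from 21 to 12 with 100 or more UMIs, 37 with no minimum and 13 with the atypical cells added, and the lower count from 12 to 5 and 37. In homozygous over heterozygous the higher count went from 4 to 1 and 17, and the lower from 8 to 1, 24 and, thinned, 18. Leaving out 1 library at a time gave 48 to 57 members higher outside (44 with all), 0 to 1 lower outside, 1 to 1 higher and 1 to 4 lower in atypical cells. Thinning left 0 higher and 0 lower members in atypical cells and 33 members with a leading class in place of 51. Leaving out the 5% of cells with the most UMIs left 0 higher in atypical cells, and subtracting the droplet profile gave 3 lower. Counts with no minimum, without 1 library, after subtraction, or of thinned genotype and atypical calls have no share of all genes beside them. They show how the calls move with the setting and do not set the members against other genes. Of values for single genes, 2329 kept their direction and size, 134 moved by more than their counting interval, and 3 changed sign, all of *Slc16a1*. Its log2 ratio of homozygous over wild-type was 0.0059 thinned, and the cause was not tested. After subtraction it was 0.51, and that of heterozygous over wild-type 1.28, but there the wild-type value fell to 0 and was replaced by 3 counts, so neither is a measured change of direction. Intervals cover counting error only, and a member under 50 UMIs in a comparison was not counted in it.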
